A study of Homo sapiens with 18 samples.

Results

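The keratins of epithelial cells were followed in LNCaP through 6 of the 20045 genes with a symbol on the arrays. They are KRT8, KRT18 and KRT19 of luminal (simple) epithelium, KRT7 of ducts, KRT5 of basal cells, and KRT80. Every probe that the platform annotation assigns to one of these genes was taken, which gave 8 probes. The set was chosen for how KRT19 responded to dihydrotestosterone (DHT), the most potent natural androgen, beside the other keratins across all 6 treatment groups, so every DHT response of these genes is given as a description with no p-value. Limma p-values are given only for comparisons between the antagonists, with DHT or without it, and not for differences of DHT responses. LNCaP is a human prostate cancer line that depends on androgen and carries a mutant androgen receptor, and all cells were kept in charcoal-stripped serum, which is poor in steroids. The 18 arrays form 6 groups of 3, each treated for 24 h: DMSO (the vehicle), DHT at 10 nM per the labels, flutamide at 1 μM, flutamide with DHT, MJC13 at 30 μM, and MJC13 with DHT. Flutamide is a classic antagonist that competes with androgen for the receptor's ligand pocket, and MJC13 is an antagonist directed at the receptor's surface. The labels do not say whether the 3 replicates came from separate cultures, so p-values measure the spread between these samples, which may be technical.

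Keratins are the intermediate filament proteins of epithelial cells. A filament is built from pairs of a type I (acidic) and a type II (basic) chain, and neither type forms filaments alone. KRT8 (type II) and KRT18 (type I) are the standard pair of simple epithelium and of the luminal cells of the prostate. KRT19 is a small type I keratin that lacks most of the tail domain and can also pair with KRT8. KRT5 (type II) marks the basal layer, where its usual partner is KRT14, KRT7 (type II) is found in ducts and glands, and KRT80 (type II) is a filament keratin linked to cell junctions. In RefSeq, KRT8 and KRT18 are neighbours on chromosome 12, KRT7 lies next to KRT80 and KRT5 lies between KRT6A and KRT71 on the same chromosome, and KRT19 lies between KRT15 and KRT9 on chromosome 17.

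RefSeq promoter windows (GRCh38.p14) were matched for 2 of the 6 genes, the luminal KRT8 and the basal KRT5. They are shown as annotated windows of a keratin that these cells express and of one whose probe stayed near the lowest values of the table. Each window holds 250 bases before and 50 after an annotated start, 5′ to 3′ on the minus strand, with KRT8 at chr12:52926420-52926719 and KRT5 at chr12:52520345-52520644. The KRT8 start of this window lies 23391 bases inside the gene's full RefSeq span, so it is one of several starts. Whether these cells use it was not measured. Capitals mark the only match to the androgen receptor half-site.
KRT8: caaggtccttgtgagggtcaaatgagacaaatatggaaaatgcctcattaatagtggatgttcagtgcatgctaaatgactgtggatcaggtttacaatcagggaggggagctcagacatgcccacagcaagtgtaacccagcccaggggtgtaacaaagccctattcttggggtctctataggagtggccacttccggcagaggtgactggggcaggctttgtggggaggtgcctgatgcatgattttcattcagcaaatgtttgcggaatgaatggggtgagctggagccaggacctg
KRT5: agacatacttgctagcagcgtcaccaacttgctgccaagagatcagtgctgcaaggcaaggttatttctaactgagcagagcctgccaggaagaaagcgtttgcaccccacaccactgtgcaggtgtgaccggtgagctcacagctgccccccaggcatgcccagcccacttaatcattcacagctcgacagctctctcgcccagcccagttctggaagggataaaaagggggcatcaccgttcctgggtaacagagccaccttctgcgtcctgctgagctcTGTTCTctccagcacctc
The half-site (AGAACA or TGTTCT, both strands) was found at 33 bases after the KRT5 start and not in the KRT8 window. Of 35116 promoter windows of this length, 14.8% held at least 1 such match. Neither window held the exact letters of a TATA box (TATAAA, in 11.5% of windows) or a CCAAT box (CCAAT, in 34.6%) on either strand. Near matches, such as the stretch gataaaa in the KRT5 window, were not counted, so a TATA-like element is not excluded. A match to these letters is a description of the sequence and not evidence of binding.

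KRT19 was brighter on average with DHT than without it, in the absence of an antagonist and in the presence of either one. Of the 8 keratin probes it had the largest DHT difference without antagonist and with flutamide. Values are normalized signals on a log2 scale, on which the whole table runs from 5.81 to 14.82 with a median of 6.60. KRT19 read 6.33, 6.80 and 6.37 in DMSO (replicates 1, 2 and 3) and 7.59, 8.56 and 7.98 in DHT. The DHT arrays did not overlap the DMSO arrays. How often other probes lack overlap between groups of 3, in this or the later comparisons, was not measured. The group means were 6.50 ± 0.26 and 8.04 ± 0.49 (SD, n = 3), a difference of 1.54 (SE 0.29), or 2.91-fold, which is part of the pattern that chose the gene and carries no test. Between arrays with the same replicate number the difference was 1.26, 1.76 and 1.61.

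With flutamide, KRT19 read 6.53, 6.29 and 6.28 without DHT and 7.03, 7.90 and 7.37 with DHT. Every array with both ligands lay above every array with flutamide alone. With MJC13, it read 7.01, 7.06 and 6.29 without DHT and 7.80, 6.87 and 7.48 with DHT. Here the groups overlapped, because replicate 2 of DHT with MJC13 lay below replicates 1 and 2 of MJC13 alone. Over all 6 groups, the 9 arrays with DHT ran from 6.87 to 8.56 (median 7.59) and the 9 without from 6.28 to 7.06 (median 6.37). Of the 9 arrays with DHT, 7 lay above every array without it.

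**Figure D1:**
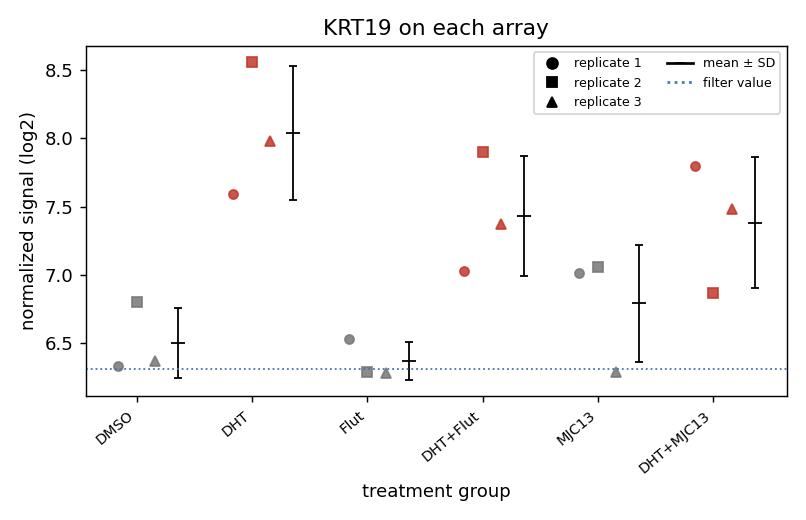
KRT19 signal (log2, vertical axis) on each of the 18 arrays, by treatment group; symbols give the replicate number, red marks arrays with DHT, bars give the mean ± SD (n = 3) and the dotted line the filter value of 6.31. The DHT arrays sit between 7.59 and 8.56, above all 3 DMSO arrays, whereas replicate 2 of DHT with MJC13 (6.87) sits among the arrays without DHT.

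The models were fitted with limma across all 28334 probes past a filter on dim probes (mean signal above 6.31), which gives each difference its error. With flutamide the KRT19 response was 1.07 (SE 0.29, 95% interval 0.46 to 1.68), or 2.10-fold. With MJC13 it was 0.60 (SE 0.29, interval -0.02 to 1.21), or 1.51-fold. The mean of both responses was 0.83 (SE 0.21, interval 0.40 to 1.27), or 1.78-fold. Between same-numbered arrays the response was 0.50, 1.61 and 1.09 with flutamide and 0.79, -0.20 and 1.19 with MJC13, so replicate 2 with MJC13 ran the other way.

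The response with MJC13 rests on single arrays: it was 0.34 without replicate 3 of MJC13, 0.38 without replicate 1 of DHT with MJC13, and 0.85 without replicate 2 of DHT with MJC13. KRT19 values without DHT lay near the low end of the table, and no detection p-value could be tied to an array here, so how far they stood above background was not measured. Because RNA was pooled over all cells of a dish, fewer cells expressing KRT19 and less KRT19 RNA per cell cannot be told apart.

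The order of the KRT19 group means was DHT (8.04), DHT with flutamide (7.43 ± 0.44), DHT with MJC13 (7.38 ± 0.48), MJC13 (6.79 ± 0.43), DMSO (6.50) and flutamide (6.37 ± 0.14). Each neighbouring pair in this order overlapped in its arrays. Compared with DHT alone, KRT19 was lower by a log2 difference of -0.61 with flutamide added and -0.66 with MJC13 added. Both differences are descriptions with the same SE of 0.29, and both share the DHT arrays. Without DHT replicate 2, the brightest array for KRT19, they were -0.35 and -0.40. The difference with flutamide was also -0.41 without replicate 1 of flutamide with DHT, and that with MJC13 was also -0.40 without replicate 2 of MJC13 with DHT. Against DMSO, flutamide alone gave -0.14 and MJC13 alone 0.29.

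The antagonists were compared at the doses used, 1 μM flutamide and 30 μM MJC13, which differ. The KRT19 response with MJC13 minus that with flutamide was -0.47 (SE 0.41, interval -1.34 to 0.39). It is made of DHT responses, which chose the set, and is read as a description with no test. The direct comparisons, with DHT and without it, were tested with limma. In the presence of DHT, KRT19 differed between MJC13 and flutamide by -0.05 (interval -0.67 to 0.56, adjusted p = 1.0). In its absence the difference was 0.42 (interval -0.19 to 1.04, adjusted p = 0.929). Neither tested difference passed, and the intervals of all 3 differences leave room for either sign. Over the fits that left out 1 array, the difference of responses ran from -0.72 (without MJC13 replicate 3) to -0.22 (without replicate 2 of MJC13 with DHT), and was -0.24 without replicate 2 of flutamide with DHT. The difference without DHT ran from 0.28 (without MJC13 replicate 2) to 0.67 (without MJC13 replicate 3).

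KRT8, the type II chain of the luminal pair, stayed between 11.08 and 12.02 on all 18 arrays. It read 11.52, 11.13 and 12.02 in DMSO and 11.08, 11.86 and 11.80 in DHT. These ranges overlapped almost entirely, and the difference was 0.02 (SE 0.26, interval -0.53 to 0.57). With flutamide the KRT8 response to DHT was -0.21 (interval -0.76 to 0.35), and with MJC13 it was -0.18 (interval -0.73 to 0.37). No DHT array lay above all arrays without DHT.

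KRT18, the type I partner of KRT8, was measured by 2 probes that followed each other across the 18 arrays (Pearson r = 0.808, a description over arrays that share treatments). The brighter probe, ILMN_1803408, read 8.21, 8.42 and 8.39 in DMSO and 8.53, 9.07 and 8.91 in DHT, with no overlap. The difference was 0.50 (SE 0.21), or 1.41-fold. The other probe, ILMN_1730848, read 7.47, 7.25 and 7.65 in DMSO and 7.63, 8.29 and 7.86 in DHT, and there replicate 1 of DHT lay just below replicate 3 of DMSO. Its difference was 0.47 (SE 0.23), or 1.39-fold. Both differences are smaller than that of KRT19 and, like it, carry no test.

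In the presence of the antagonists, the mean KRT18 response was positive with flutamide and negative with MJC13 for both probes. With flutamide, ILMN_1803408 read 8.01, 8.21 and 8.53 without DHT and 8.60, 8.73 and 8.41 with DHT, a response of 0.33 (interval -0.11 to 0.77). With MJC13 it read 9.28, 8.70 and 8.54 without DHT and 8.47, 8.36 and 8.64 with DHT, a response of -0.35 (interval -0.79 to 0.09). The arrays with and without DHT overlapped in both cases, and between same-numbered arrays replicate 3 went against the mean in each, at -0.13 with flutamide and 0.10 with MJC13. For ILMN_1730848 the response was 0.46 with flutamide (interval -0.01 to 0.94) and -0.51 with MJC13 (interval -0.99 to -0.03). The MJC13 arrays of this probe, at 8.35, 7.81 and 7.75, overlapped those of MJC13 with DHT, at 7.17, 7.76 and 7.44, only where replicate 2 with DHT lay just above replicate 3 without.

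The difference between the KRT18 responses, MJC13 minus flutamide, was -0.68 (SE 0.30) for ILMN_1803408 and -0.97 (SE 0.32) for ILMN_1730848. Both differences are made of DHT responses, which chose the set, and are read as descriptions with no test. Over all probes limma called 0 for this difference. KRT18 was also brighter in MJC13 than in flutamide without DHT, by 0.59 (SE 0.21) and 0.66 (SE 0.23). That comparison did not pass, with a limma adjusted p of 0.914 for each probe. Against DMSO, the MJC13 arrays differed by 0.50 and 0.51, as a description. Much of this lay in replicate 1 of MJC13, the brightest of the 18 arrays for both probes. Without that array the response with MJC13 was -0.13 and -0.32, the difference of responses was -0.46 and -0.78, and MJC13 minus flutamide was 0.37 and 0.47 for ILMN_1803408 and ILMN_1730848. With the description number of the arrays as a block, the difference of responses was -0.25 and -0.78, and the response of ILMN_1803408 was 0.18 with flutamide and -0.07 with MJC13.

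**Figure D2:**
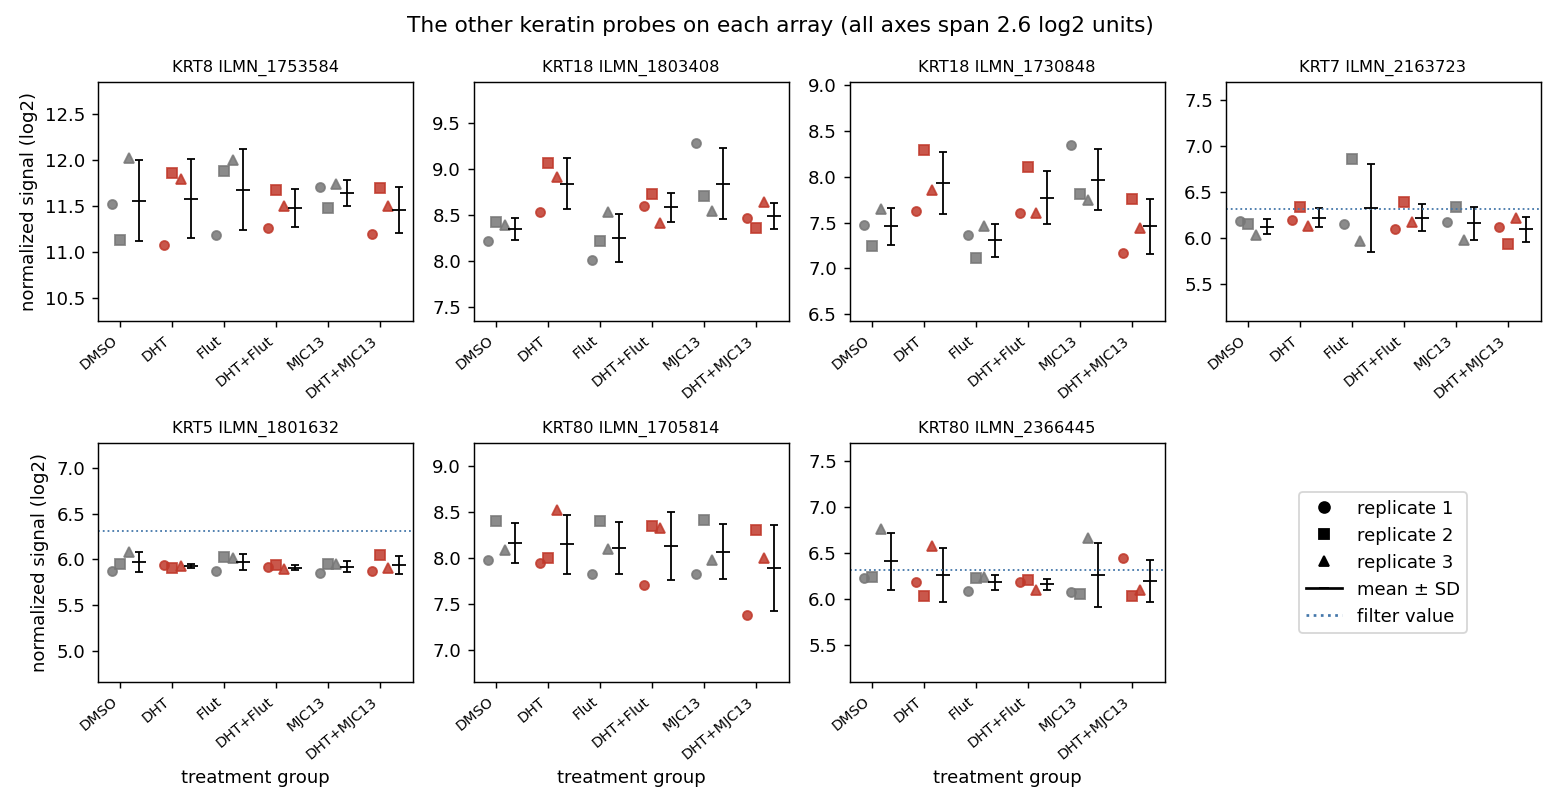
Signals (log2, vertical axes, all of the same span) of the 7 probes of KRT8, KRT18, KRT7, KRT5 and KRT80 on each of the 18 arrays, by treatment group, with the mean ± SD (n = 3); red marks arrays with DHT and the dotted line is the filter value. KRT8 stays between 11.08 and 12.02 in all groups, and both KRT18 probes are highest in replicate 1 of MJC13 (9.28 and 8.35).

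KRT80 was measured by 2 probes, of which ILMN_1705814 passed the filter. It read 7.98, 8.40 and 8.09 in DMSO and 7.94, 8.0 and 8.52 in DHT, with means of 8.16 ± 0.22 and 8.15 ± 0.32 (SD, n = 3). The 2 groups overlapped, and the 95% interval of their difference was -0.54 to 0.54. With flutamide the response was 0.02 (interval -0.52 to 0.56), and with MJC13 it was -0.18. Replicate 1 of MJC13 with DHT gave the lowest value of this probe, at 7.38. The second KRT80 probe, ILMN_2366445, had a mean of 6.25 and stayed between 6.03 and 6.76.

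The ductal KRT7 and the basal KRT5 lay under the filter and were not tested. KRT7 had a mean of 6.19 and ran from 5.93 to 6.86, with the highest value in replicate 2 of flutamide and every other array at or below 6.39. KRT5 had a mean of 5.94 and ran from 5.85 to 6.08, near the lowest value of the table on every array. Group means of KRT5 lay between 5.91 and 5.97, and those of KRT7 between 6.09 and 6.32. In a fit without the filter, DHT minus DMSO was 0.10 (interval -0.29 to 0.48) for KRT7 and -0.04 (interval -0.20 to 0.12) for KRT5, as a description. How far these dim signals stood above background was not measured, so the values are not a measurement of the absence of a response.

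Of the 5 keratin probes past the filter, 1 was called for DHT against DMSO (limma adjusted p under 0.05), and 2 had an unadjusted p under 0.05. Over all probes 54 were called (0.191%), 50 of them higher (0.176%) and 4 lower (0.0141%) with DHT, and 2345 were at an unadjusted p under 0.05. Since the DHT responses chose the set, nothing is read from this count or from those with an antagonist. It was 0 without any one DMSO array, without DHT replicate 2 or 3, and without the filter. With flutamide 0 of the 5 were called and 1 had an unadjusted p under 0.05, against 0 called (0.0%) and 1314 under that unadjusted level over all probes. With MJC13 the counts were again 0 and 1 of the 5, against 0 called (0.0%) and 1604. Same-numbered arrays of MJC13 with and without DHT were taken as paired by the rule on correlations given below. With the title number as a block, limma called 5 probes over all for this response and no keratin. For the mean of both responses 0 keratin probes were called, against 1 probe (0.00353%) over all, and 1 of the 5 had an unadjusted p under 0.05.

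**Figure D3:**
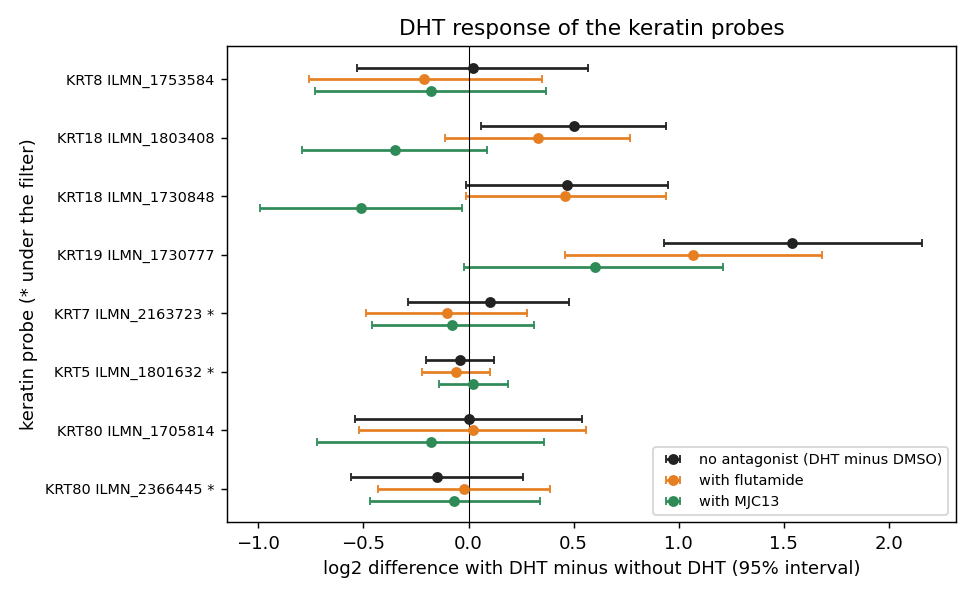
Difference with DHT minus without DHT (log2, horizontal axis, with 95% intervals from limma) for the 8 keratin probes, without antagonist, with flutamide and with MJC13; asterisks mark probes under the filter. KRT19 shows 1.54, 1.07 and 0.60 in that order, KRT8 stays near 0, and KRT18 (ILMN_1730848) shows 0.47, 0.46 and -0.51.

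KRT19 was set against the luminal pair on the same array, as its signal minus the mean of the KRT8 and KRT18 signals (brighter probe of each). The level of this difference has no meaning across probes, and only its change between groups is read. It was -3.54, -2.98 and -3.83 in DMSO and -2.22, -1.90 and -2.38 in DHT, without overlap. With flutamide it was -3.07, -3.75 and -3.99 without DHT and -2.90, -2.30 and -2.58 with it, again without overlap. With MJC13 it was -3.48, -3.03 and -3.85 without DHT and -2.03, -3.16 and -2.59 with it, where replicate 2 with DHT lay below replicate 2 without. Averaged over both antagonists, the DHT response of KRT19 exceeded that of the luminal pair by 0.93, or 1.91-fold, and by 0.79 to 1.08 when each array was left out in turn. This is the pattern for which the set was chosen and it carries no test.

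**Figure D4:**
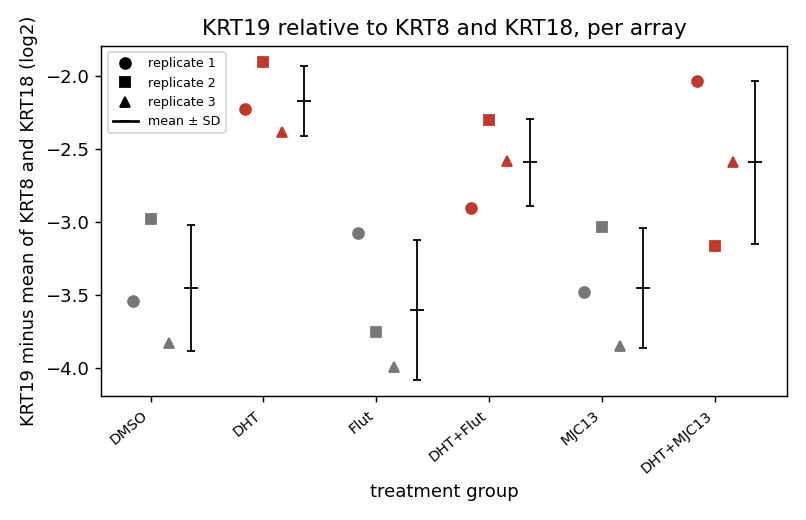
KRT19 signal minus the mean of the KRT8 and KRT18 signals on the same array (log2, vertical axis), by treatment group, with the mean ± SD (n = 3) and red for arrays with DHT. All DHT arrays (-2.38 to -1.90) lie above all DMSO arrays (-3.83 to -2.98), and so do the arrays of flutamide with DHT above flutamide alone.

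Across the 18 arrays KRT19 followed the KRT18 probes with r = 0.592 and 0.463, and showed r = -0.147 with KRT8 and -0.036 with KRT80. The 5 genes that followed KRT19 most closely were taken from 14417 genes compared, by Pearson correlation over the 18 arrays, which share the same 6 treatments. They were PEX10, a peroxisome biogenesis factor (r = 0.888), PDIA5, a protein disulfide isomerase (r = 0.876), ELOF1, a transcription elongation factor (r = 0.870), RAB8A, a GTPase of vesicle transport (r = 0.856), and SNORD31, a small nucleolar RNA (r = 0.855). PEX10 differed by 1.21 between DHT and DMSO, by 0.63 with flutamide and by 0.48 with MJC13. PDIA5 differed by 0.89, 0.41 and 0.26 in the same comparisons. These values are a description, since the genes were picked by the correlation.

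The wider keratin family was mostly dim. Of 49 other keratin genes listed, 43 had a probe and 11 passed the filter. For DHT against DMSO, limma called 0 of the 11, with 1 at an unadjusted p under 0.05, beside 0.191% called and 2345 of 28334 at that unadjusted level over all probes. Of the 11, 6 had a positive difference. Their median was 0.02, against -0.01 over all probes tested. KRT73, a hair follicle keratin, had a difference of 0.50 (SE 0.24), and KRT20, a keratin of intestine and urothelium, had -0.43 (SE 0.21). The median was -0.21 with flutamide, where 1 of the 11 had a positive difference, and 0.02 with MJC13, where 6 did. Over all probes tested the median was 0.0 in both. In each, limma called 0 of the 11 and 0 of all 28334 probes, so nothing is read from these counts.

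Genes whose products bind or anchor keratin filaments, such as desmosomal plaque proteins and plakins, were mostly past the filter, 18 of 19. For DHT against DMSO 0 of the 18 were called and 1 had an unadjusted p under 0.05, beside the same shares over all probes (0.191% called, 2345 of 28334 unadjusted). PKP3, a plakophilin of desmosomes, had a difference of 0.56 (SE 0.26) and PPL, the cytolinker periplakin, -0.49 (SE 0.29). Of 14 other intermediate filament genes 10 passed the filter, with 0 called, 3 at an unadjusted p under 0.05 and a median of -0.09, against 0.191%, 2345 of 28334 and -0.01 over all probes. The B-type lamins LMNB1 and LMNB2, which line the nucleus, had differences of 0.96 (SE 0.33) and 0.72 (SE 0.22). LMNA, which encodes the A-type lamins, went the other way at -0.50 (SE 0.31), and PRPH, a neuronal filament protein, had -0.69 (SE 0.25).

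All 8 markers of luminal prostate epithelium with a probe passed the filter. Their means over the 18 arrays ran from 7.55 for KLK2 and 8.0 for KLK3, both androgen-regulated kallikreins, to 13.57 for CDH1 and 13.76 for EPCAM, both epithelial adhesion proteins, and 14.20 for FOXA1, a pioneer transcription factor. Of 5 basal markers with a probe only LAMB3 passed, at 6.37, while KRT14 read 6.03 and KRT15 6.11. Of the stromal markers 5 of 6 passed, led by VIM at 10.58. The mean of the 8 luminal markers ran from 12.05 to 12.17 in DHT and from 11.26 to 11.84 in DMSO, and it was also higher in flutamide with DHT (11.75 to 11.91) than in flutamide alone (11.23 to 11.75). With MJC13 it ran from 11.61 to 11.97 with DHT and from 11.41 to 11.51 without. This mean moved with KRT19, and its part in that result was not tested. The markers did not move as a group. For DHT against DMSO, 4 of the 8 had a positive difference, and their median was 0.06, against -0.01 over all probes tested. FOXA1 differed by -0.06 (SE 0.15) and HOXB13, a homeobox gene, by -0.15 (SE 0.24). Of the 8 markers 1, KLK2, was called for DHT against DMSO (2.23, SE 0.28) and 4 had an unadjusted p under 0.05. Over all probes 0.191% were called and 2345 of 28334 were at that unadjusted level. KLK3 differed by 2.41 (SE 0.52) and the protease TMPRSS2 by 1.17 (SE 0.34), whereas FOLH1, the prostate-specific membrane antigen, differed by -0.98 (SE 0.35). The adhesion genes EPCAM and CDH1 differed by -0.01 (SE 0.18) and 0.12 (SE 0.17). The mean of the 5 basal markers ran from 6.07 to 6.19 in DHT and from 6.22 to 6.29 in DMSO, without overlap, and overlapped with and without DHT in the presence of either antagonist. All but LAMB3 lay under the filter, so this mean is mostly dim signal and is not read as a change of basal markers. The mean of the 4 neuroendocrine markers ran from 7.09 to 7.22 in DHT and from 7.25 to 7.34 in DMSO, also without overlap, from 7.15 to 7.42 in flutamide with DHT against 7.40 to 7.48 in flutamide, and from 7.24 to 7.57 in MJC13 with DHT against 7.25 to 7.39 in MJC13. ENO2, a glycolytic enzyme, read 10.34 and passed the filter with NCAM1, while CHGA and SYP, the defining secretory markers, lay under it. How often means of other probes lack overlap between these groups was not measured. The part of these lists in the KRT19 result was not tested.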

How the data were processed

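Expression was measured in LNCaP RNA on 18 Illumina arrays, 6 groups of 3. Per the labels and the study's methods, the authors exported signals from GenomeStudio, then background-subtracted and quantile-normalized them with lumi. Versions are not given in the sources used here. The deposited log2 values do not tell a plain logarithm from lumi's variance stabilization. The deposited table of signals before normalization was not used, because its 36 columns (18 array codes) match no sample label. Array files name no genome build. The labels give DHT at 10 nM and the study's text another dose.

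Of 47223 probes, those brighter on average than percentile 40 (6.31) were fitted with limma 3.58.1 in R 4.3.3 as a means model of 6 groups with 12 residual degrees of freedom. P-values were adjusted by Benjamini-Hochberg over 28334 probes, and a probe was called at an adjusted p under 0.05. A fold is 2 to the power of the log2 difference. Tests of the DHT responses of the keratins (limma, and exact permutation tests in scipy 1.17.1) were computed, but their p-values are not given, because these responses chose the set. Gene names come from the platform annotation, with the brightest probe standing for a gene in lists. All probes of the 6 keratins are named, with the 5 genes most correlated with KRT19 and members of the other keratin, keratin partner and intermediate filament lists with the highest and lowest DHT differences past the filter. Cell type markers were named after their values were seen. The members and lists were chosen with earlier results of these data known. The fit was tested on simulated data with known changes. Of 50 probes changed 2-fold, it called 52% for the response with flutamide and 44% for that with MJC13. Of 50 changed 1.5-fold, it called 8% and 6%. A count of 0 called is therefore not a measurement of no change.

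Replicate numbers follow the sample titles, and 11 arrays carry another number in their description. Same-numbered arrays were taken as paired where all 3 correlations of their deviations from group means exceeded 0.1, which held for 5 of 15 pairs of groups. It held for MJC13 with and without DHT (r of 0.157, 0.404 and 0.253) and not for flutamide with and without DHT (0.268, 0.273 and -0.015) or for DMSO and DHT (0.018, 0.073 and 0.095). Arrays with different numbers were not correlated, so pairing was not told apart from other likeness between arrays. Alternatives were robust moderation with a trend, no filter, a filter at percentile 60, the compared groups alone, either number as a block, signals relative to GAPDH, and leaving out each array in turn. RefSeq lists 52 pseudogenes for KRT8, 68 for KRT18 and 5 for KRT19 by symbol. Probe sequences were not used here, so cross-hybridization was not checked. Chip and scan were not tied to arrays and were not tested. Array number limits the precision.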

Additional observations from a re-analysis of the deposited data

Results flagged for a closer look

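The mean KRT18 response to DHT was positive with flutamide and negative with MJC13. For both probes, every array of flutamide with DHT lay above the mean of flutamide alone, and every array of MJC13 with DHT lay below the mean of MJC13 alone. The probes are listed here for this opposite direction, so the pattern describes them and is no separate support. The response with MJC13 minus that with flutamide was -0.68 for ILMN_1803408 and -0.97 for ILMN_1730848 (log2). Both values are descriptions with no test. Over the 18 leave-one-out fits the difference ran from -0.83 to -0.46 and from -1.13 to -0.78. Between same-numbered arrays, ILMN_1803408 showed 0.59, 0.52 and -0.13 with flutamide and -0.81, -0.35 and 0.10 with MJC13, so 1 pair in each went the other way. With the description number as a block the difference was -0.25 and -0.78. Over all probes, limma called 0 for this difference and 1266 had an unadjusted p under 0.05.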

How the results depend on the processing

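KRT19 differences kept their direction under all alternatives run, except those between the antagonists and that of flutamide against DMSO (0.05 with the description number as a block and 0.01 without DMSO replicate 2). With the description number as a block, the KRT19 difference of responses was 0.21 and MJC13 with DHT minus flutamide with DHT was 0.40, the KRT19 response with MJC13 was 0.98, MJC13 with DHT minus DHT was -0.39, MJC13 minus flutamide was 0.19, the KRT18 difference of responses was -0.25 and -0.78, and reversals for dim or flat probes were KRT80 with flutamide (-0.27), KRT80 with MJC13 (0.14) and KRT8 with MJC13 (0.04). With the title number as a replicate block, limma called 469 probes for DHT against DMSO, 4 with flutamide, 5 with MJC13, 211 for the mean response and 1 for MJC13 with DHT against DHT. Each group holds every title number, so pairing by it cannot change a mean response. Those of KRT19 (0.83) and of KRT19 relative to the luminal pair (0.93) are therefore the same by construction. In limma the title-number block changed no keratin call. Without a filter 33 probes were called for DHT against DMSO, 0 of them keratins, 0 for the mean response and 1 for MJC13 with DHT against DHT. The 60th percentile filter gave 35 and the compared groups alone 87.

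Leaving out each array in turn gave 7 to 95 probes called for DHT against DMSO. The counts were 7 and 10 without DMSO replicates 1 and 2, 24, 27 and 9 without DHT replicates 1, 2 and 3, and 95 without replicate 2 of MJC13 with DHT. Keratin probes called ranged from 0 to 1, with 0 without any one DMSO array and without DHT replicate 2 or 3. Calls ranged from 0 to 11 for the mean response, with 11 without replicate 2 of MJC13 with DHT and 0 without flutamide replicate 1, MJC13 replicate 1 or 2, or replicate 1 or 3 of MJC13 with DHT. They ranged from 0 to 2 for the response with MJC13 (2 without replicate 1 of flutamide with DHT), from 0 to 1 for flutamide with DHT against DHT (1 without replicate 2 of MJC13 with DHT) and from 0 to 2 for MJC13 with DHT against DHT (2 without replicate 3 of MJC13 with DHT). KRT19 ran from 1.28 to 1.77 for DHT against DMSO, from 0.84 to 1.27 with flutamide, from 0.34 to 0.85 with MJC13, and from -0.26 to 0.21 between the antagonists with DHT, where it was 0.18 without replicate 2 of flutamide with DHT and 0.21 without replicate 2 of MJC13 with DHT. KRT80 with flutamide ran from -0.12 to 0.23 (-0.12 without flutamide replicate 1, -0.09 and -0.08 without replicates 2 and 3 of flutamide with DHT), and with MJC13 from -0.38 to 0.08 (0.08 without replicate 1 of MJC13 with DHT). Relative to GAPDH the KRT19 responses were 1.52, 0.95 and 0.46, and with MJC13 that of KRT18 (ILMN_1730848) was then larger, at -0.64, as it was without MJC13 replicate 3 (-0.62 beside 0.34). The cause of these shifts was not tested.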
